A study of Mus musculus with 23 samples.

Results

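The Dlk1-Dio3 microRNAs are the maternally expressed microRNAs of one imprinted domain on mouse chromosome 12, and they were followed here in sorted lung cells from late gestation to 4 weeks of age. The set is a list of 47 mature microRNAs of this domain, given by their place in it and not by a threshold on their values, although it was drawn up with earlier results of these data known. Of these, 44 were on the measured panel of 602 microRNAs, 38 were above background in at least 2 samples and were tested, and 6 were not tested. The panel rows did not include miR-299a-5p, miR-411-3p or miR-485-3p. Among the untested members, miR-341-3p, miR-380-5p, miR-412-3p, miR-540-3p and miR-665-3p were above background in no sample, and miR-666-5p was above background in 1 sample. The samples were 10 of lung endothelial cells (EC) and 13 of type II pneumocytes (AT2), the surfactant-producing cells of the alveolus. All came from wild-type C57BL6 mice, and no treatment was recorded. The 6 stages were E16.5 and E18.5 (E, embryonic day), and then P1, P7, P14 and P28 (P, postnatal day). Each stage had 2 samples per cell type, except 3 for AT2 at P28 and 1 each for EC at E18.5 and P1. The sample descriptions carry CD31 for EC and CD326 for AT2. The name AT2 is that of the labels at every stage, and no marker read here tells AT2 from other epithelial cells.

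In this domain the protein-coding genes Dlk1, Rtl1 and Dio3 are expressed from the paternal chromosome, while the long noncoding RNAs Meg3, Rian and Mirg and the microRNAs processed from the same transcripts are expressed from the maternal one. The microRNAs next to Rtl1 are transcribed antisense to it and are known to direct cleavage of the Rtl1 transcript. The long run from miR-379 to miR-410 is known for high expression in embryo, placenta and brain and for a role in metabolic adaptation of the newborn. In lung, as in many organs, imprinted genes of this kind are commonly most active while the organ grows.

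The 44 members on the panel come from 40 hairpins, with positions from RefSeq's GRCm38.p6 table. For miR-666-5p no hairpin was found there, and it was placed by the position of its mature sequence. Between chromosome 12 positions 109571990 and 109595388, within the span of Rtl1 (109564900 to 109604418), lie 9 hairpins with 10 members. Within Rian (109603945 to 109661716) lie 2 hairpins, those of miR-341 and miR-370. The remaining 32 members form the run from miR-379 to miR-410, which covers 34.7 kb from 109709060 to 109743795 and ends inside Mirg (109734981 to 109749458). All members lie close together, but they do not share a seed: RefSeq mature sequences were found for 41 of the 44, and these had 41 distinct seeds, bases 2 to 8, which choose the targets of a microRNA. The sequences below are those of members whose levels diverged although their hairpins are neighbours, of arms from the same hairpin, and of near-identical pairs. They are written 5′ to 3′ with the seed in capitals. The deposited table lists microRNAs by miRBase accession, for example MIMAT0000148 for miR-136-5p, MIMAT0000139 for miR-127-3p, MIMAT0001092 for miR-376b-3p and MIMAT0003168 for miR-543-3p, and their names were assigned here.
miR-136-5p: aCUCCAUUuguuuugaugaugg
miR-127-3p: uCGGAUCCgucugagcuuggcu
miR-433-3p: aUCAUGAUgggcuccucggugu
miR-434-5p: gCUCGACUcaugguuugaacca
miR-434-3p: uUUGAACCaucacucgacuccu
miR-495-3p: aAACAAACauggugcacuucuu
miR-543-3p: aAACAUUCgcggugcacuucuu
miR-667-3p: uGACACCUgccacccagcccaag
miR-376a-3p: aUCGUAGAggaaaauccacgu
miR-376b-3p: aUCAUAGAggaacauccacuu
miR-300-3p: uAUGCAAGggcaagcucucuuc
miR-381-3p: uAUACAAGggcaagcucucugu
miR-369-3p: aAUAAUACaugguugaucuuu
miR-409-5p: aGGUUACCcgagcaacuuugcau
miR-409-3p: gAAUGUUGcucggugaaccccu
miR-410-3p: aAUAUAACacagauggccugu

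Counted from 1 at the 5′ end, miR-376b-3p differs from miR-376a-3p at 3 positions (G4A, A13C and G20U), of which the first is in the seed. Likewise, miR-381-3p differs from miR-300-3p at 3 of 22 positions (G4A, U21G and C22U). Between miR-495-3p and miR-543-3p there are 4 differences (A6U, A7U, A9G and U10C), and the rest of the sequence is the same. How far the probe of one such microRNA also reads its near copy was not tested.

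Values are the deposited scaled signals of an nCounter assay, which counts molecules hybridised to barcoded probes, and they rest on 26640 to 571706 recovered microRNA counts per sample. Signals of different microRNAs depend on their probes, so comparisons below are within a microRNA. Both cell types carried their markers: over 6 stages both arms of miR-126, the endothelial microRNA, were lower in AT2 (median log2 difference -5.16), and all 9 epithelial microRNAs, the miR-200 and miR-183 families with miR-375, were higher (median 2.36). EC P14 replicate 2, EC P28 replicate 2 and EC P1 replicate 1 had summed epithelial signals of 10748, 5761 and 4323, against 583 to 3940 in the other EC samples and 11159 to 20600 in AT2, and these 3 EC libraries are said below to stand apart. AT2 P28 replicate 1 had the fewest counts, 26640. Background, read from 8 negative control probes, was mostly higher in EC, where the limit lay between 14.4 and 95.1 scaled units, than in AT2 apart from 1 sample (6.16 to 20.5, and 57.2 in AT2 E18.5 replicate 2). Of the 38 tested members, 11 were above background in no EC sample, 2 were above it in every EC sample and 14 in every AT2 sample.

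In AT2, the members together made up several percent of all microRNA signal before and just after birth, and about 1% or less at P28. Their summed share was 4.92% and 4.49% at E16.5, 6.94% and 7.09% at E18.5, and 7.87% and 5.57% at P1. It was then 3.01% and 3.14% at P7, 2.55% and 1.62% at P14, and 0.815%, 0.757% and 0.335% at P28. Leaving the 5 highest microRNAs out of the total raised the P28 shares to 1.18%, 1.08% and 1.26%, the last from 0.335%. No AT2 sample from P7 on reached the lowest sample of the earlier stages. In EC the share at E16.5 was 0.672% and 0.662%. It was 1.54% at E18.5, 1.81% in the P1 sample, 0.308% and 0.539% at P7, 0.414% and 1.61% at P14, and 0.259% and 0.209% at P28. Part of the EC sums is signal below background: counting only members above it, the shares were 0.166% and 1.46% at P14 and 0.059% and 0.102% at P28, from 5, 20, 2 and 5 members. The P14 value of 1.61% is from the EC library with the highest epithelial signal, and the part of this in the result was not tested. By group, the mean share was 5.86% ± 1.34 (SD, n = 4) in AT2 before birth and 1.75% ± 1.16 (n = 7) from P7 on, and in EC 0.958% ± 0.504 (n = 3) and 0.556% ± 0.529 (n = 6). In the sample with the fewest counts, 217 member counts gave the 0.815%, with a 95% Wilson interval of 0.713% to 0.93% that covers counting error only. In bulk samples, fewer cells expressing a microRNA and less of it per cell cannot be told apart.

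**Figure D1:**
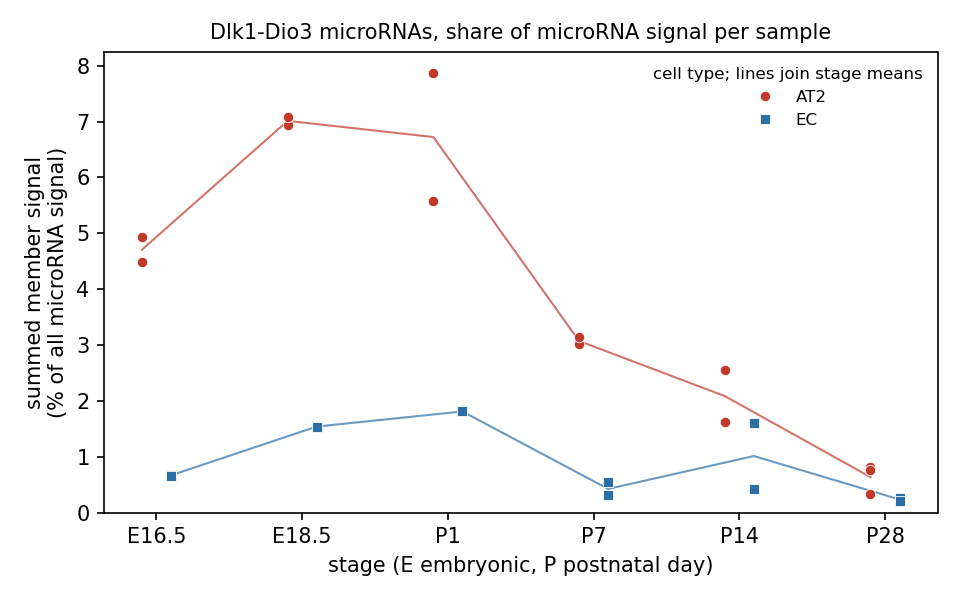
Summed signal of the 44 Dlk1-Dio3 microRNAs on the panel as a percentage of all microRNA signal, by stage. Each point is 1 sample, circles AT2 and squares EC, and lines join stage means; the AT2 points lie between 4.49% and 7.87% up to P1 and between 0.335% and 3.14% from P7 on.

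Most members were higher in AT2 than in EC. Over 6 stages 26 of 38 were called higher in AT2 and 3 lower (limma, Benjamini-Hochberg adjusted p under 0.05 over all 302 tested microRNAs), where 19.5% of all tested microRNAs were called higher and 47.7% lower. The median log2 difference was 0.83 over the members and -0.43 over all tested microRNAs. With the sample medians aligned, 28 members were called higher and 0 lower, and the median over all tested microRNAs was -0.08. The 3 members called lower, miR-370-3p, miR-485-5p and miR-668-3p, were above background in no EC sample, and no fold is given for them. With background subtracted all 3 changed sign, and miR-370-3p was then called higher in AT2 (1.48, adjusted p = 0.00102). Without the 3 EC libraries that stood apart, 21 were called higher and 4 lower. P1 dropped out of that comparison, as its only EC sample was among the 3. Without 4 AT2 libraries from P7 on with high endothelial signal, named with the marker lists, 23 were called higher and 0 lower. Both AT2 P7 samples were among the 4, so P7 dropped out there.

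In the miR-376 family, whose transcripts are known to be edited within the seed, the AT2 minus EC difference was 2.11 (SE 0.19, adjusted p = 5.15e-08) for miR-376b-3p, 1.66 for miR-376c-3p and 0.94 for miR-376a-3p. Above 1.5 on the log2 scale were also miR-377-3p (1.91), miR-127-3p (1.83), miR-434-5p (1.63), miR-154-5p (1.59), miR-136-5p (1.56) and miR-410-3p (1.51). Between 1 and 1.5 lay miR-382-5p (1.45), miR-411-5p (1.39), miR-495-3p (1.31), miR-369-3p (1.29), miR-434-3p (1.21), miR-381-3p (1.19) and miR-329-3p (1.12). Lower but called were miR-487b-3p (0.87), miR-379-5p (0.86), miR-431-5p (0.80), miR-433-3p (0.77), miR-409-5p (0.73), miR-300-3p (0.72) and miR-134-5p (0.66), the last known for its control of dendritic spine size in neurons. The other 3 called members, miR-409-3p, miR-543-3p and miR-673-5p, were above background in no EC sample. Of the members with a size given, miR-487b-3p and miR-379-5p were above background in 1 of 10 EC samples. It was 2 of 10 for miR-434-5p and miR-411-5p, and 3 of 10 for miR-134-5p, miR-154-5p and miR-381-3p. For miR-409-5p and miR-431-5p it was 4 of 10. The sizes of these members are uncertain, as most of their EC values are background. Both cell types came from the same specimen in 9 cases, and in each of the 9 the summed member signal was higher in AT2, by 1.42-fold at the least and 3.75-fold at the most. Counting only members above background, the ratios ran from 1.75 to 5.66, and the pair at 1.42, from P28, had the highest of these. The limits of that pair were unequal, 7.43 in AT2 P28 replicate 1, which is 1 count, and 65.1 in EC P28 replicate 1. Above them were 24 members in AT2 and 2 in EC, so the 5.66 is not a measured size. Of the 38 members, 15 were higher in AT2 in all 9 specimens, miR-136-5p, miR-127-3p, miR-376b-3p and miR-410-3p among them. By specimen, the number of the 38 higher in AT2 ran from 19, in the P28 pair at 1.42, to 36 at P1. It was 23 in the P14 pair. The matching shares over all tested microRNAs were not computed.

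Before birth, too, most members were higher in AT2. At E16.5 and E18.5, 26 members were called higher in AT2 and 0 lower, where 16.6% of all tested microRNAs were higher and 28.1% lower. At those stages every AT2 sample exceeded every EC sample for 23 members, against 16.2% of all tested microRNAs, and for 2 members, both below background in every early EC sample, every AT2 sample lay lower, against 28.8%. The median was 1.51 over the members and -0.50 over all. For miR-376b-3p the geometric mean was 693 in AT2 and 96.6 in EC, a fitted 6.87-fold difference (adjusted p = 2.66e-05). For miR-410-3p it was 536 and 98.9 (4.78-fold, adjusted p = 0.00021), and for miR-127-3p 674 and 138 (4.36-fold, adjusted p = 0.00418). With a mean of 177 in AT2 and no EC sample above background, miR-543-3p was at least 3.11-fold higher (adjusted p = 0.000767). Without AT2 E16.5 replicate 1, the count was 16 instead of 26.

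In AT2, 33 of the 38 members fell after birth and none rose. Comparing P7, P14 and P28 with E16.5 and E18.5, 40.1% of all tested microRNAs were called lower and 11.3% higher. The median log2 difference was -2.12 over the members and -0.64 over all tested microRNAs. With the sample medians aligned, the median over all was 0.24, that over the members was -1.23 and 22 members were called lower. Without the 4 late AT2 libraries with high endothelial signal, 29 were called lower with a median of -2.18. Both P7 samples were among the 4, so late was then P14 and P28 only. In 25 members every late sample lay below every early one, against 24.8% of all tested microRNAs. Across the domain, 6 of the 8 tested members within Rtl1 fell (median -2.05), as did 26 of the 29 in the run from miR-379 to miR-410 (median -2.07) and the single tested member in Rian, miR-370-3p.

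The largest fall was that of miR-543-3p, which was 243 and 106 at E16.5 and 294 and 129 at E18.5. From P7 on its lowest value was 1.00, the deposited minimum, its median 1.19 and its highest 24.2. It was above background in 1 of 7 late samples, and with the other late values raised to each sample's background limit it was at least 13.8-fold lower late (adjusted p = 6.22e-06). For miR-300-3p the values were 206 and 161 at E16.5 and 277 and 302 at E18.5, and from P7 on the lowest was 4.77, the median 19 and the highest 41.7. The groups do not overlap, and the fitted difference was -3.45 (SE 0.39, adjusted p = 7.91e-07). Its near copy miR-381-3p changed by -2.22 (SE 0.39, adjusted p = 0.000102). Falls of 3 log2 units or more were also fitted for miR-376b-3p (-3.32), miR-433-3p (-3.24), miR-134-5p (-3.20), miR-495-3p (-3.14), miR-667-3p (-3.14), miR-431-5p (-3.0) and miR-541-5p (-3.0). At the other end, miR-668-3p and miR-494-3p had the smallest called differences, and each was above background in no late AT2 sample and at most 1 early one, so no fold is given. Of the 5 members not called, miR-337-3p and miR-496a-3p were above background in 3 AT2 samples each, while miR-539-5p (-0.61), miR-409-5p (-0.69) and miR-136-5p (-0.22) were measured in nearly all. The difference for miR-136-5p had an SE of 0.37 and an adjusted p of 0.627.

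In EC, 23 of 38 members were called lower late and 0 higher, where 27.8% of all tested microRNAs were lower and 9.27% higher. The median was -1.28 over the members and -0.57 over all. Under other scalings fewer were called: 9 with sample medians aligned, 12 after quantile normalization, 9 with edgeR and 10 with DESeq2 on the recovered counts. Without EC E18.5 replicate 1, the only EC sample of that stage, early was E16.5 alone and the count was 9. Without the 3 libraries that stood apart it was 21. For miR-495-3p the early values were 147, 125 and 135, and from P7 on the lowest was 5.14, the median 23.2 and the highest 28.7. These do not overlap, and the difference was -2.83 (SE 0.40, adjusted p = 3.4e-05). For miR-376b-3p the early values were 91.6, 88.8 and 111, and late values ran from 7.19 to 38.6 with a median of 21.1, a difference of -2.37 (SE 0.31, adjusted p = 1.7e-05). Both were above background in 2 of 6 late EC samples, so low late values are uncertain. The smallest called difference was that of miR-376a-3p (-0.96, adjusted p = 0.0409), which was above background in all 9. The next, miR-154-5p (adjusted p = 0.0307), was above background in 0 of 3 early and 2 of 6 late EC samples, and no size is given. Of the 23 called members, 7 were above background in no early and no late EC sample.

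**Figure D2:**
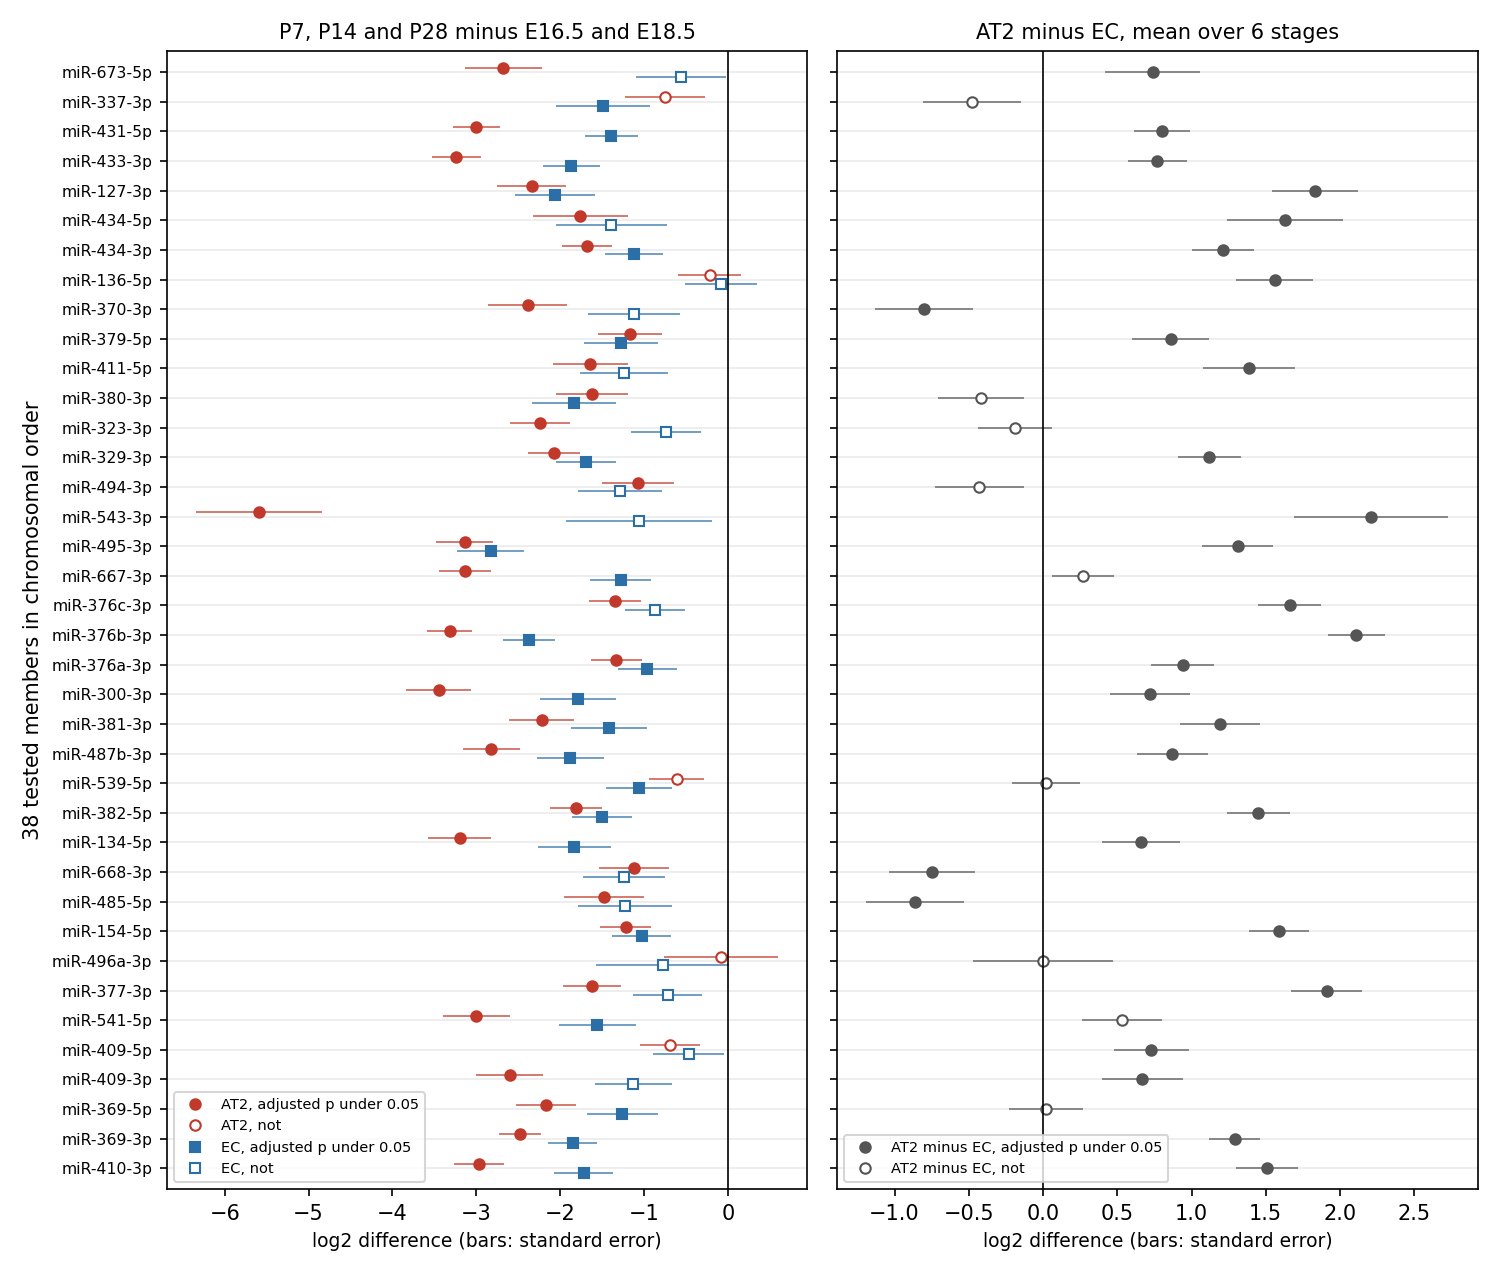
Log2 differences of the 38 tested members in chromosomal order, with standard errors. The left panel shows P7, P14 and P28 minus E16.5 and E18.5 in AT2 (circles) and EC (squares), and the right panel AT2 minus EC over 6 stages; filled symbols have an adjusted p under 0.05. All 38 differences on the left are below 0 in both cell types, as are 74.2% of those over all tested microRNAs in AT2 and 73.5% in EC. Among the members, miR-136-5p lies close to 0 in both (-0.22 and -0.08).

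Whether the fall differed between the cell types was tested directly. Of 38 members, 3 were called with the larger fall in AT2 and 0 with the larger fall in EC, where 3.31% of all tested microRNAs went the first way and 2.98% the second. Of the 3, miR-543-3p and miR-667-3p (adjusted p = 0.026 for each) were above background in no early or late EC sample, so their EC change was not measured and no size is given here. The AT2 values of miR-667-3p were 98.2, 70.1, 135 and 181 before birth and from P7 on 4.77 at the lowest, 9.50 at the median and 27.7 at the highest. Its EC values were 27.5, 30.5 and 71.3 before birth, and 8.22 to 39.1 from P7 on, all below background. For miR-431-5p, one of the microRNAs antisense to Rtl1, the difference was -1.61 (SE 0.43, adjusted p = 0.0283), with 1 of 3 early and 2 of 6 late EC samples above background, and it was called in 1 of 5 alternative scalings, count tests and background handling. The AT2 values of miR-431-5p were 219, 222, 201 and 178 before birth and 7.43 to 55.3 from P7 on, with a median of 29.1. In EC they were 45.8, 27.8 and 103, and then 11.6 to 46.7 with a median of 23.5, so the groups overlap in EC and not in AT2. The count was 0 without AT2 E16.5 replicate 1, 1 without either AT2 E18.5 sample or AT2 P7 replicate 1, 6 without EC E18.5 replicate 1 and 5 without EC P28 replicate 2.

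The 8 members with the highest mean signal did not follow 1 course. The highest was miR-136-5p, a microRNA antisense to Rtl1. Its AT2 values were 782 and 455 at E16.5, 1343 and 1918 at E18.5, 3015 and 4661 at P1, 1104 and 1525 at P7, 2341 and 694 at P14, and 409, 301 and 366 at P28. It was highest at P1 and lowest at P28, and the late samples span the whole range of the early ones. In EC, the E16.5 values were 198 and 236, the E18.5 value was 491 and the P1 value 1031, followed by 265 and 380 at P7, 282 and 1263 at P14, and 166 and 146 at P28, again with the highest level outside P14 replicate 2 at P1. EC P14 replicate 2 and AT2 P14 replicate 1, each the higher of its pair, came from the same specimen.

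The other member near Rtl1 among the 8, miR-127-3p, fell. It was 617 and 471 at E16.5, 849 and 835 at E18.5 and 1039 and 800 at P1 in AT2, and 22.3, 131 and 257 were the lowest, median and highest values from P7 on. In EC it was 122, 99.9 and 214 before birth, 395 at P1, and 15.4, 36.1 and 101 from P7 on. The late minus early difference was -2.34 (SE 0.41, adjusted p = 0.000129) in AT2 and -2.06 (SE 0.48, adjusted p = 0.00421) in EC. Its hairpin is a close neighbour of that of miR-136, whose 5p arm was not called in either.

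In the miR-376 family, miR-376c-3p was 684, 480, 868 and 709 before birth in AT2, 989 and 864 at P1, and from P7 on 97.8 at the lowest, 254 at the median and 531 at the highest. In EC it was 140, 108 and 246, then 278 at P1, then 33.9, 100 and 306. The difference was -1.35 in AT2 (adjusted p = 0.00135) and -0.87 in EC (adjusted p = 0.0613), and late samples overlap early ones in both. For miR-376a-3p AT2 values were 314, 327, 346 and 491, then 664 and 547 at P1, and 81.8, 172 and 233 from P7 on, a difference of -1.33 (SE 0.30, adjusted p = 0.0013). EC values were 159, 169 and 198, then 186, then 57.8, 87.9 and 143. By geometric stage mean it was lowest at P14 in AT2 (114) and not at P28 (148). Its lowest single AT2 value, 81.8, was from P28 replicate 1, the sample with the fewest counts. For miR-376b-3p AT2 values were 650, 535, 851 and 778, then 667 and 303 at P1, and 39.4, 58.8 and 122 from P7 on, without overlap (-3.32, SE 0.27, adjusted p = 3.25e-08). Thus microRNAs that differ at 3 bases had fitted falls of 1.33 and 3.32 log2 units in the same libraries, a contrast that was not itself tested.

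Further along the run, miR-329-3p was 490, 508, 679 and 510 before birth in AT2, 534 and 582 at P1, and 29.7, 132 and 261 from P7 on (-2.07, adjusted p = 1.99e-05). In EC it was 101, 180 and 357, then 216, then 15.4, 91.4 and 187 (-1.69, adjusted p = 0.00179), with late and early samples overlapping. For miR-382-5p AT2 values were 717, 445, 837 and 674, then 606 and 905, then 71.3, 175 and 344 (-1.81, adjusted p = 7.49e-05). EC values of miR-382-5p were 128, 139 and 341, then 243, then 18.5, 90.7 and 230 (-1.50, adjusted p = 0.00452). In AT2 neither overlapped between early and late. At the far end, miR-369-3p was 502, 494, 743 and 565 before birth in AT2, 381 and 518 at P1, and 29.7, 113 and 193 from P7 on (-2.48, adjusted p = 2.53e-07). In EC it was 165, 175 and 182, then 193, then 27, 50 and 93.3 (-1.85, adjusted p = 0.000108). It was the only one of these 8 besides miR-376b-3p and miR-376a-3p whose early and late samples were separate in both cell types.

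**Figure D3:**
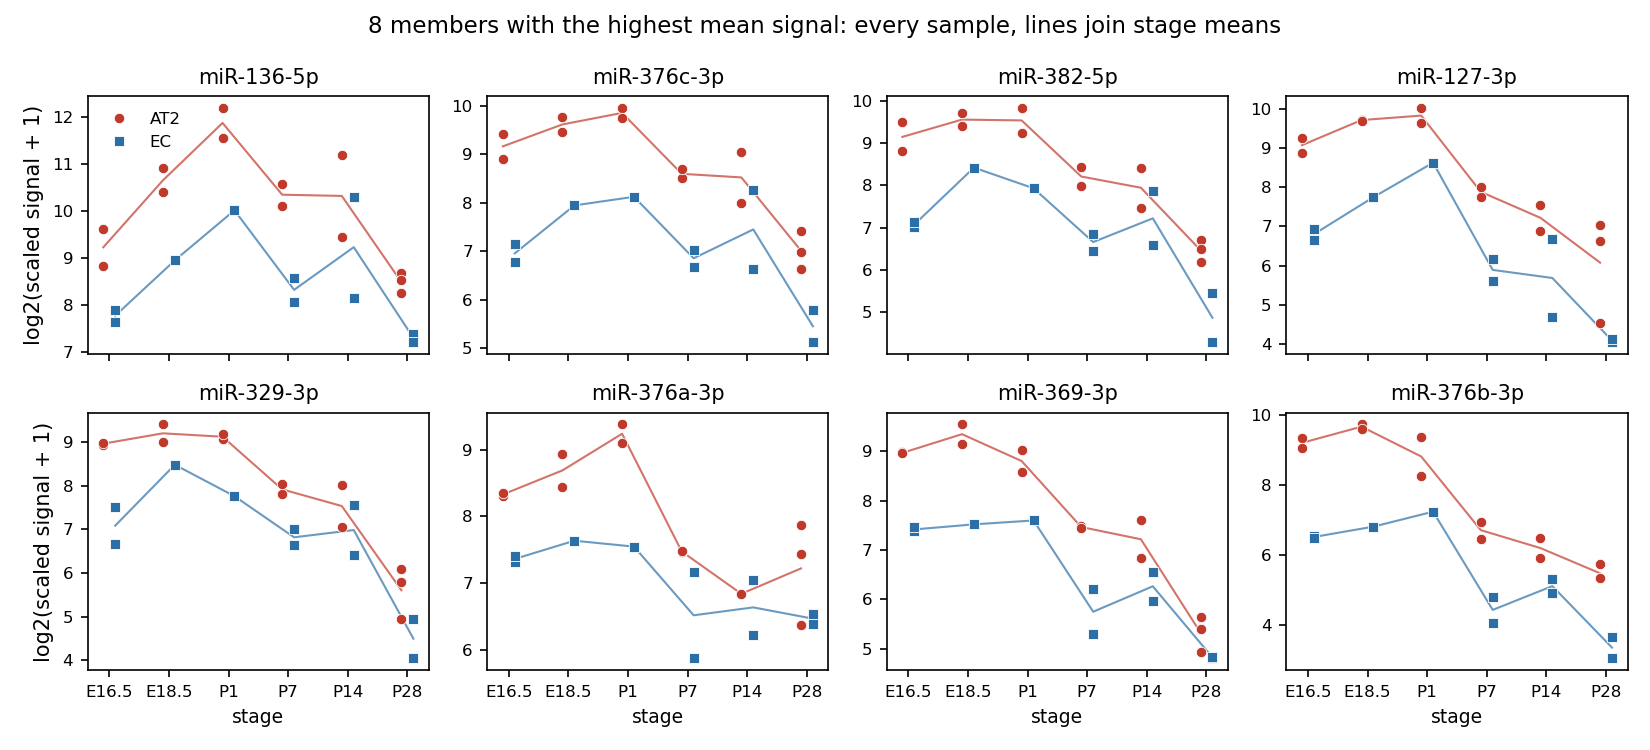
Log2 of the scaled signal plus 1 for the 8 members with the highest mean, by stage, with every sample as a point (circles AT2, squares EC) and lines joining stage means. In AT2 the P1 mean is the highest for miR-136-5p, miR-376c-3p, miR-127-3p and miR-376a-3p, while miR-369-3p and miR-376b-3p are highest at E18.5.

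Across birth few members were called in AT2, and the shares that were lower or higher in both P1 samples were near those of all tested microRNAs. From E18.5 to P1, 4 were called lower and 0 higher, where 5.96% of all tested microRNAs were lower and 2.65% higher, and the median was -0.54 over the members and -0.63 over all. Called lower were miR-667-3p (135 and 181 to 45.2 and 22.3, -2.26, adjusted p = 0.0136), miR-495-3p (423 and 421 to 119 and 82.7, -2.08, adjusted p = 0.0276), miR-543-3p (294 and 129 to 1.16 and 42.9, 1 of 2 P1 samples above background, at least 10.6-fold, adjusted p = 0.0308) and miR-370-3p (26.1 and 39.6 to 9.27 and 1.99, adjusted p = 0.0403). For miR-370-3p 1 of 2 samples was above background at each stage, and no fold is given. Neither P1 sample reached an E18.5 value for miR-134-5p (149 to 206, then 44.1 to 56.8), miR-433-3p (444 to 466, then 167 to 272) or miR-300-3p (277 to 302, then 113 to 139), but these did not pass the test. In the other direction, both P1 samples exceeded both E18.5 samples for miR-136-5p (3015 to 4661 against 1343 to 1918), miR-154-5p (333 to 357 against 144 to 219), miR-377-3p (477 to 493 against 280 to 325) and miR-376a-3p (547 to 664 against 346 to 491), also without passing the test (adjusted p from 0.148 to 0.421).

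These calls changed with the scaling. With sample medians aligned, miR-379-5p was called higher (1.95, adjusted p = 0.046) and miR-667-3p lower. With DESeq2 on the recovered counts, 4 members were called higher, miR-136-5p (1.79, adjusted p = 0.041), miR-154-5p, miR-376a-3p and miR-379-5p, and 2 lower, miR-495-3p and miR-667-3p. With edgeR 1 was higher and 3 lower. With background subtracted none was called. Of the 4 members called lower, miR-667-3p was called in 4 of 5 such alternatives and miR-543-3p in 0. The count was 0 without AT2 E18.5 replicate 2 and 1 without AT2 E18.5 replicate 1 or AT2 P1 replicate 2. Over all 38 members, P1 samples were both lower for 19, against 55.3% of all tested microRNAs, and both higher for 6, against 14.6%.

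**Figure D4:**
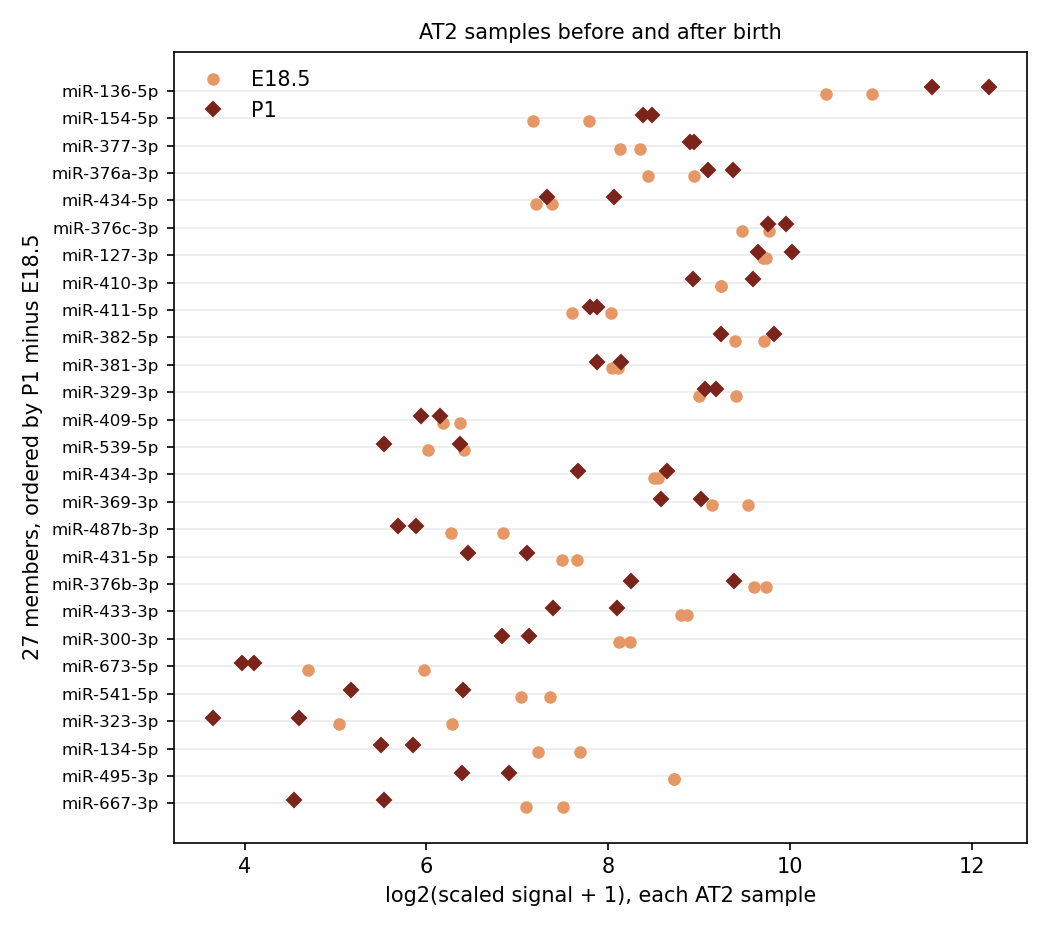
Log2 of the scaled signal plus 1 in each AT2 sample at E18.5 (circles) and P1 (diamonds) for the 27 members above background in every AT2 sample of E16.5, E18.5 and P1, ordered by the P1 minus E18.5 difference. The P1 samples lie to the left for miR-667-3p and miR-495-3p at the bottom and to the right for miR-136-5p at the top.

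Neighbouring hairpins had unlike values at this step, mostly without passing the test, and a relation with position was not tested. The values here are from the 27 members above background in every AT2 sample up to P1. Within Rtl1, miR-433-3p, miR-127-3p, miR-434-5p, miR-434-3p and miR-136-5p, in chromosomal order, differed by -1.09, 0.11, 0.40, -0.37 and 1.22 from E18.5 to P1. Within the run, miR-495-3p and miR-667-3p were called lower and miR-376c-3p and miR-376a-3p, the nearest downstream hairpins among the 27 apart from miR-376b-3p (-0.85), had differences of 0.24 and 0.55. From P1 to P7 every one of the 38 fitted differences in AT2 was negative, as were 62.3% of those over all tested microRNAs, with medians of -1.19 and -0.28. Of the 38, 2 passed the test and were lower, miR-410-3p (774 and 489 at P1, 105 and 115 at P7, -2.47, adjusted p = 0.0155) and miR-376b-3p (667 and 303 at P1, 122 and 87.4 at P7, -2.11, adjusted p = 0.0155), where 0.662% of all tested microRNAs were lower and 0% higher. With background subtracted 0 passed. The summed endothelial signal was 1323 and 1712 in the P1 samples and 10817 and 10058 in the P7 samples, and its part in this step was not tested. Both P7 samples lay below both P1 samples for 32 members, against 39.1% of all tested microRNAs. The count was 0 without AT2 P1 replicate 1 or either P7 sample, 4 without EC P14 replicate 2, and 9 without the 3 EC libraries that stood apart, which enter only through the shared estimate of the spread.

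Both arms were members for 4 hairpins. For miR-434, the 3p arm was called lower late in AT2 (-1.68, adjusted p = 0.000138) and so was the 5p arm (-1.76, adjusted p = 0.0165). For miR-369, both arms were called lower late in AT2, by -2.48 and -2.17, though the 5p arm was above background in 2 of 7 late samples. For miR-409, the 3p arm was called lower (-2.60, adjusted p = 2.73e-05) and the 5p arm was not (-0.69, adjusted p = 0.11), a difference between arms that was not itself tested. The 3p values were 54.8, 46.7, 31.8 and 32.2 before birth and 2.53 to 10.1 from P7 on, above background in 2 of 7, and the 5p values 54.1, 49.0, 81.8 and 71.9 and then 13.1 to 60.7, above background in 6 of 7. The part of background in this contrast was not tested. For miR-380, the 5p arm was above background in no sample, and the 3p arm (20.6, 26.5, 23.9 and 29.7 before birth in AT2) was above it in 6 AT2 samples and called lower late (-1.62, adjusted p = 0.00429).

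Other cell types' microRNAs were read beside these results. In AT2 the summed signal of 9 mesenchymal and muscle microRNAs, such as miR-143, miR-145 and miR-199a, ran from 1148 to 3604 before birth, from 264 to 373 at P1 and from 247 to 1853 from P7 on. Of its 6 tested microRNAs, 2 were called lower late in AT2, where 40.1% of all tested microRNAs were. These 2 were miR-199a-5p (-2.83, adjusted p = 0.000129) and miR-199a-3p (-2.51, adjusted p = 5.21e-05). The median log2 difference was -1.08 over the 6, beside -2.12 over the Dlk1-Dio3 members and -0.64 over all tested microRNAs. In EC the list ran from 1200 to 5798. All 6 were lower in AT2 over 6 stages, and 1 of 6 was at the early stages. Its part in the members' values was not tested. The endothelial sum in AT2 was 1287 to 5345 before birth and 1323 and 1712 at P1. From P7 on it was 8928 to 10817 in AT2 P7 replicates 1 and 2, P14 replicate 2 and P28 replicate 3, and 355 to 1363 in the other late samples. These 4 libraries thus stood apart, against 50228 to 203745 in EC. Leukocyte and erythroid microRNAs, 4 and 2 tested, were all lower in AT2.

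Other developmentally regulated microRNAs gave a comparison. Of 3 tested microRNAs from other imprinted domains, miR-675-3p of H19 (-3.06), miR-296-5p of the Gnas domain (-3.24) and miR-335-5p of Mest (-2.13), 3 were called lower late in AT2 and 2 in EC, all but miR-335-5p (-1.89, adjusted p = 0.0605). All 5 tested microRNAs of the miR-17-92 cluster, known from proliferating cells, were lower late in AT2 (median -1.35) and 4 of 5 in EC (median -1.71). The let-7 family, which typically rises with differentiation, had 2 of 8 higher late in AT2 and 3 of 8 in EC. Over the 23 samples, the 5 non-members most like the mean log2 profile of the tested members had Pearson correlations of 0.788 to 0.90, a description of samples that share libraries and stages. They were MIMAT0005851 (0.90), MIMAT0000612 (0.864), MIMAT0009455, miR-675-3p (0.804) and MIMAT0000658, given by identifier where no name was at hand. The list of members does not hold every microRNA of the domain. Whether those given by identifier lie in the same domain was not checked. Among the members themselves the correlation with that mean ran from 0.112 for miR-496a-3p to 0.956 for miR-410-3p, and was 0.644 for miR-136-5p. Each member is itself part of that mean, and the non-members are not.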

How the data were processed

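MicroRNAs were measured with the nCounter mouse microRNA panel in 23 samples. Per the deposited table, the values are a scaled signal per miRBase accession. How the authors scaled them is not given in the sources used here, and the submitters' processing notes name mm10 without its role. Pooled over the 23 samples, 99.99% of values outside the ERCC control rows were whole multiples of a sample's step within 0.1, so that whole counts were recovered. Values under 1 had been raised to 1 in 9 samples and were counted as whole. Because the values are scaled, the count tests named in the design as the choice for whole counts are alternatives.

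Background was the mean plus 2 SD of the 8 negative control rows of each sample. MicroRNAs above it in at least 2 samples (302) were fitted with limma 3.58.1 in R 4.3.3 on log2(signal + 1), with 12 group means over all 23 samples, the variance trend and Benjamini-Hochberg adjustment, and called at 0.05. Differences are on that log2 scale, which understates changes of low signals, and folds are powers of them. Where some or all samples of the dimmer group were below background, "at least" compares the brighter group, measured in every sample, with a dimmer group whose values below background were raised to each sample's limit. The fit was tested on simulated data for late minus early in AT2. There limma recovered 34% of 2-fold and 90% of 4-fold changes and called 1% of unchanged microRNAs. For edgeR these were 67%, 97% and 2.9%. A member not called can therefore still have changed. On the recovered counts edgeR 4.0.16 and DESeq2 1.42.0 were also run. Other alternatives were sample medians aligned, quantile normalization, background handling, filters, a pseudocount of 10, no trend and samples left out. Leaving out the 4 AT2 samples with high endothelial signal was chosen after seeing the data. Where leaving samples out emptied a group, its stage dropped out of the comparisons that average over stages. This held for AT2 P7 without these 4, and for EC P1 and EC E18.5 without their only samples.

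Early is E16.5 and E18.5, late is P7, P14 and P28. The labels do not say whether samples are separate animals, so the p-values reflect sample-to-sample spread that could be technical in part. Titles give 9 specimen IDs shared by both cell types. Deviations from group means correlated between such samples at 0.21 to 0.308 in all pairs but 1 (-0.02). Pairs with a group of 1 sample were left out, and both pairs at E16.5, like both at P7, share 1 value by construction. A fit with the specimen as a random block had a correlation of 0.231.

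Members, marker lists and tests were chosen with earlier results of these data known. Per-sample values are given for the 8 members with the highest mean. Also named were members called in the cell-type difference of the change, called higher late or higher in AT2, those with both arms listed, and the 2 largest and 2 smallest called changes per cell type. Other members shown across birth were chosen after their values were seen. No table at hand pairs accessions with names: member names follow the order of the list and miRBase numbering, as do marker names, and list entries without a known accession were not used. Sequences and positions are from RefSeq, GRCm38.p6.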

Additional observations from a re-analysis of the deposited data

Results flagged for a closer look

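For 3 members, the test of the difference between cell types was passed, with a larger late minus early fall in AT2 than in EC on the log2 scale. The fitted differences were -4.53 for miR-543-3p, -1.85 for miR-667-3p and -1.61 for miR-431-5p. In EC, miR-543-3p and miR-667-3p stayed below background before birth and from P7 on, so these 2 values are no measured sizes. For miR-431-5p 1 of 3 early and 2 of 6 late EC samples were above background. The part of background in these differences was not tested. Adjusted p-values over the alternatives are in the range of 0.00206 to 0.268 for miR-543-3p, 0.00533 to 0.134 for miR-667-3p and 1.59e-05 to 0.668 for miR-431-5p.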

How the results depend on the processing

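Counts of members called stayed within 1.5 times for AT2 minus EC over 6 stages (22 to 34 over all alternatives, of which 0 to 8 lower) and for late minus early in AT2 (22 to 33, all lower). For AT2 minus EC at the early stages they were 25 to 28 with all samples kept. Late minus early in EC had 23 calls, but 9 with medians aligned, 12 after quantile normalization, 9 with edgeR, 10 with DESeq2 and 9 with a common floor of 95.1. The difference between cell types of late minus early had 3, but 1 with edgeR, 15 with the common floor, 1 with no filter, 8 with a pseudocount of 10 and 7 without the 3 EC samples that stood apart. For P1 minus E18.5 in AT2 there were 4, but 2 with medians aligned, 2 after quantile normalization, 0 with background subtracted, 9 with the common floor and 7 with no filter. For P7 minus P1 in AT2 there were 2, but 4 with edgeR, 9 with DESeq2, 0 with background subtracted, 13 with the common floor, 8 with a pseudocount of 10 and 9 without the 3 EC samples. The cause of these shifts was not tested.

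Leaving out each sample in turn gave 24 to 28 for AT2 minus EC over 6 stages, 16 to 26 for AT2 minus EC at the early stages, 30 to 33 for late minus early in AT2, 9 to 26 for late minus early in EC, 0 to 6 for the difference between cell types of late minus early, 0 to 5 for P1 minus E18.5 and 0 to 4 for P7 minus P1. With the replicate block (specimen ID) the 7 counts were 30, 27, 33, 27, 4, 4 and 2 in the same order, which moved none by over 1.5 times. With background subtracted 4 differences changed sign: miR-370-3p (1.48), miR-485-5p (0.36) and miR-668-3p (0.14) in AT2 minus EC, and miR-494-3p (0.03) in late minus early in AT2. Of 120 called member differences, 29 had every value at the common floor and gave no value there, 9 fell under the stricter filter and 2 had no adjusted p in DESeq2. Over the remaining member results and alternatives, 3991 kept their call, 403 lost it and 4 reversed. Leaving out the 5 highest microRNAs from the total moved the members' mean share before birth to 8.1% in AT2 and 1.93% in EC, and from P7 on to 2.67% and 1.12%.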
